A study of Mus musculus with 12 samples.

Results

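The comparison concerns a D2 segment of chromosome 13 placed on the B6 genetic background, measured by RNA-seq in mouse embryonic stem cells. Its members are 6 of the 12 libraries of the series, chosen by their column labels: 3 of the congenic line B6-13D2 and 3 of B6. B6 is the inbred strain C57BL/6J, and D2 is DBA/2J. The congenic strain, written B6.D2-(rs30079041-rs51756099)/Bakr in the labels, carries D2 alleles on chromosome 13 between the named markers and B6 alleles elsewhere. All 6 libraries came from untreated stem cells in serum medium with LIF, the MEK inhibitor PD0325901 and the GSK3 inhibitor CHIR99021. Parental D2 cells and the reciprocal line D2-13B6, which carries a B6 segment on the D2 background, contributed 3 libraries each to the same fit and are given only for reference.

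Per the labels' protocols, the replicates were independent cultures of a single cell line for each strain, and the titles call them technical replicates. P-values therefore measure the spread between cultures, and a difference between strains cannot be told apart from a difference between the cell lines. The titles give B6 replicate 3 another line name (B6 4-1) than B6 replicates 1 and 2 (B6 5-1), while all B6-13D2 libraries are from line QJ 6-1. For the reference groups, the labels give the D2 line under different names in the title and the line field, and an end marker of the D2-13B6 segment differs between the series design and the sample labels. The column names of the congenic libraries carry a prefix that the B6 columns lack. If that prefix records a batch, it cannot be told apart from the strain. Without B6 replicate 3, 9636 genes were called, against 10003 with it.

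A congenic line isolates a chromosome segment by repeated backcrossing, so that a difference from its background strain can arise from genes within the segment or from genes elsewhere that respond to them. Mouse chromosome 13 holds a large cluster of KRAB zinc finger genes, whose proteins bind DNA through arrays of fingers and recruit TRIM28 and the H3K9 methyltransferase SETDB1 to silence repeats. Such genes differ in number and sequence between inbred strains. In the medium used here, embryonic stem cells stay in a naive pluripotent state held by Pou5f1, Sox2, Nanog and the Klf and Esrrb factors.

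Libraries held 23433894 to 24825802 expected counts in B6 and 25921333 to 29741421 in B6-13D2. Within each group, libraries correlated across genes with r of at least 0.9886, and no replicate pair agreed within sampling noise. Values below are CPM, read counts scaled to a common library size with TMM factors, so the same CPM in genes of different length does not mean the same number of transcripts. A gene was called when its edgeR adjusted p was under 0.05 over all tested genes. Changes printed with a standard error (SE) are log2 fold changes of B6-13D2 against B6. Positions refer to GRCm38. The pluripotency factors were present in every library. Pou5f1, the transcription factor that defines the stem cell state, had 678, 645 and 752 CPM in B6 replicates 1 to 3 and 755, 797 and 747 in B6-13D2. Nanog had 639, 692 and 691 CPM in B6 and 788, 803 and 784 CPM in B6-13D2 in the same order. Sox2 had 365, 355 and 404 CPM in B6 and 432, 487 and 442 CPM in B6-13D2, and Zfp42, a marker of naive cells, 66.8, 63.4 and 72.4 CPM in B6 and 80.2, 83.2 and 81.3 CPM in B6-13D2. Each was modestly higher in the congenic line, with log2 fold changes of 0.15, 0.23, 0.28 and 0.27, and the groups overlapped in none of them except Pou5f1.

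Of 17148 tested genes, 10003 were called in B6-13D2 against B6, which is 58.3%. They were 4354 higher in B6-13D2 (25.4% of tested genes) and 5649 lower (32.9%). With RLE size factors 52.0% of the calls were higher, against 43.5% with TMM, so the majority depends on the scaling. The changes were asymmetric in size: 592 called genes were higher by a log2 fold change of at least 1 (3.45%) and 1886 were lower by as much (11.0%). Lowered genes had a median log2 fold change of -0.615 and raised genes of 0.388. With so many calls, a list of genes is read below against these shares, and its median against the median of all tested genes, -0.0352. Members are not independent of each other, and no test of a list as a whole was made.

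**Figure D1:**
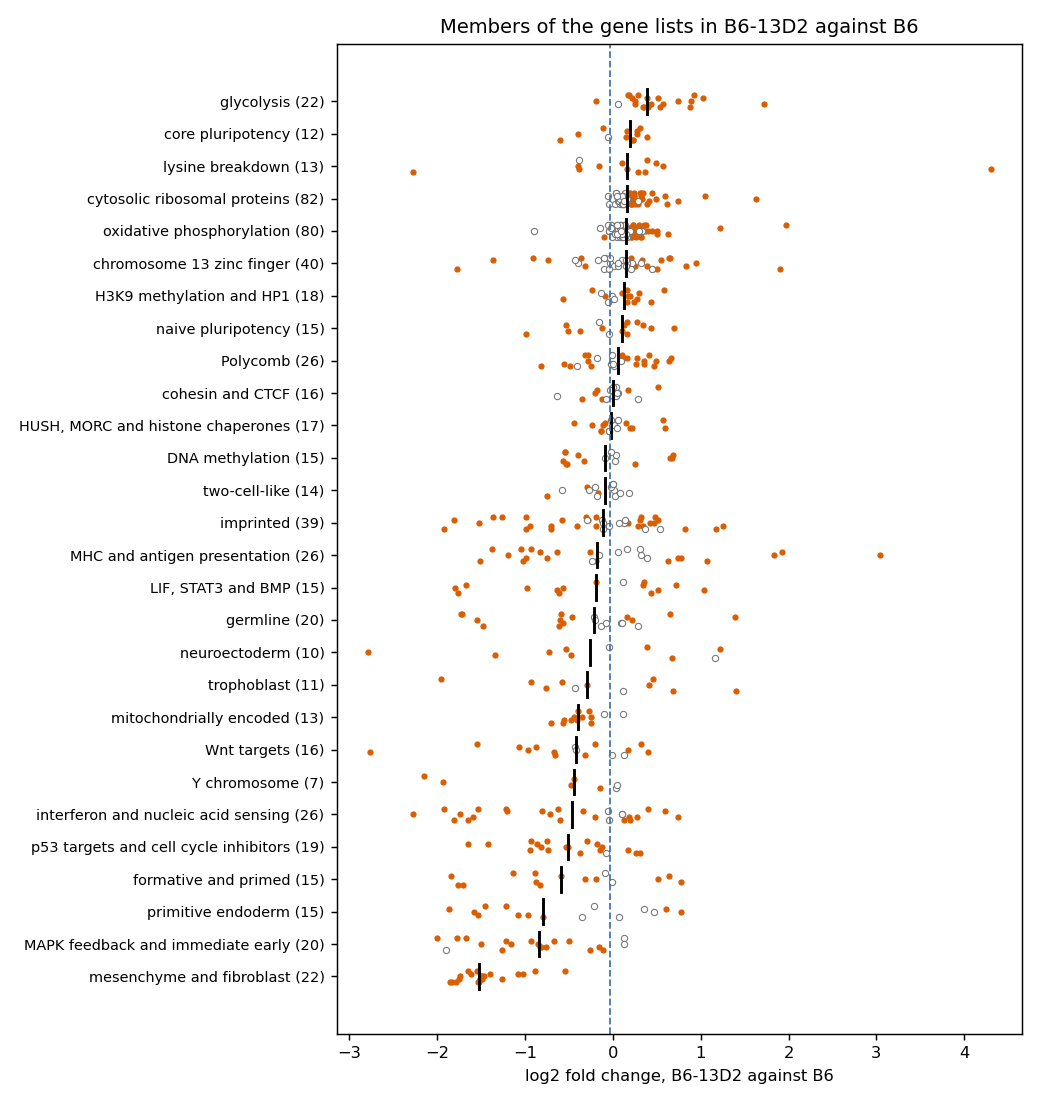
Log2 fold change (x axis) of every tested member of 28 gene lists in B6-13D2 against B6, with the number tested in parentheses; filled points were called (edgeR adjusted p under 0.05), open points were not, black bars are list medians, and the dashed line is the median of all tested genes (-0.0352). All 22 mesenchyme and fibroblast genes lie below 0, and 20 of 22 glycolysis genes were called higher.

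Genes of mesenchymal cells and fibroblasts fell without exception. All 22 listed genes were tested, and 22 of 22 fell in B6-13D2, against 32.9% of all tested genes. Their log2 fold changes ran from -1.85 to -0.54 with a median of -1.52, and 20 of them fell by at least 1. The B6 and B6-13D2 libraries overlapped in none of the 22 genes (63.2% of all tested genes did not overlap), and no member was at 0 in a library. Acta2, smooth muscle actin, had 1124, 1158 and 1074 CPM in B6 and 308, 310.5 and 311 CPM in B6-13D2. The log2 difference was -1.85 (SE 0.039), with an edgeR adjusted p of 2.31e-16. Tagln, an actin-binding protein of contractile cells, had 497, 515 and 480.4 CPM in B6 and 140.2, 135 and 143 CPM in B6-13D2 and a log2 fold change of -1.84 (SE 0.043). Every B6 library was above every congenic library by a wide margin for both. Lum, a collagen-binding proteoglycan, was far less abundant, at 1.67, 2.31 and 2.74 CPM in B6 and 0.692, 0.57 and 0.679 CPM in B6-13D2, and changed by -1.79 (SE 0.23).

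Other members were picked after their values were seen, because of their abundance. Col1a1, the main chain of type I collagen, had 6829.5, 6248 and 6207 CPM in B6 and 2135, 2079.9 and 2063 in B6-13D2, -1.62 (SE 0.051) on the log2 scale. Vim, the intermediate filament of mesenchymal cells, had 1961, 1930.3 and 1885 CPM in B6 and 709.5, 676 and 674 CPM in B6-13D2. Fn1, fibronectin, with divided reads, changed least in the list, with 4865, 4837 and 4672 CPM in B6 and 3246, 3324 and 3298 CPM in B6-13D2 and a log2 fold change of -0.54 (SE 0.031). Summed over the list, the level ranged from 26616 to 28038 CPM in B6 and from 10823 to 11012 in B6-13D2, a ratio of 2.5 between the group means. It was 37279.6 to 41980.2 CPM in D2 and 19954 to 20719 in D2-13B6, so both congenic lines were below both parental lines. In bulk RNA, fewer cells of a type and less RNA per cell cannot be told apart. The part of this lower mesenchymal level in the other decreases, and in the rises, reported here was not tested.

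**Figure D2:**
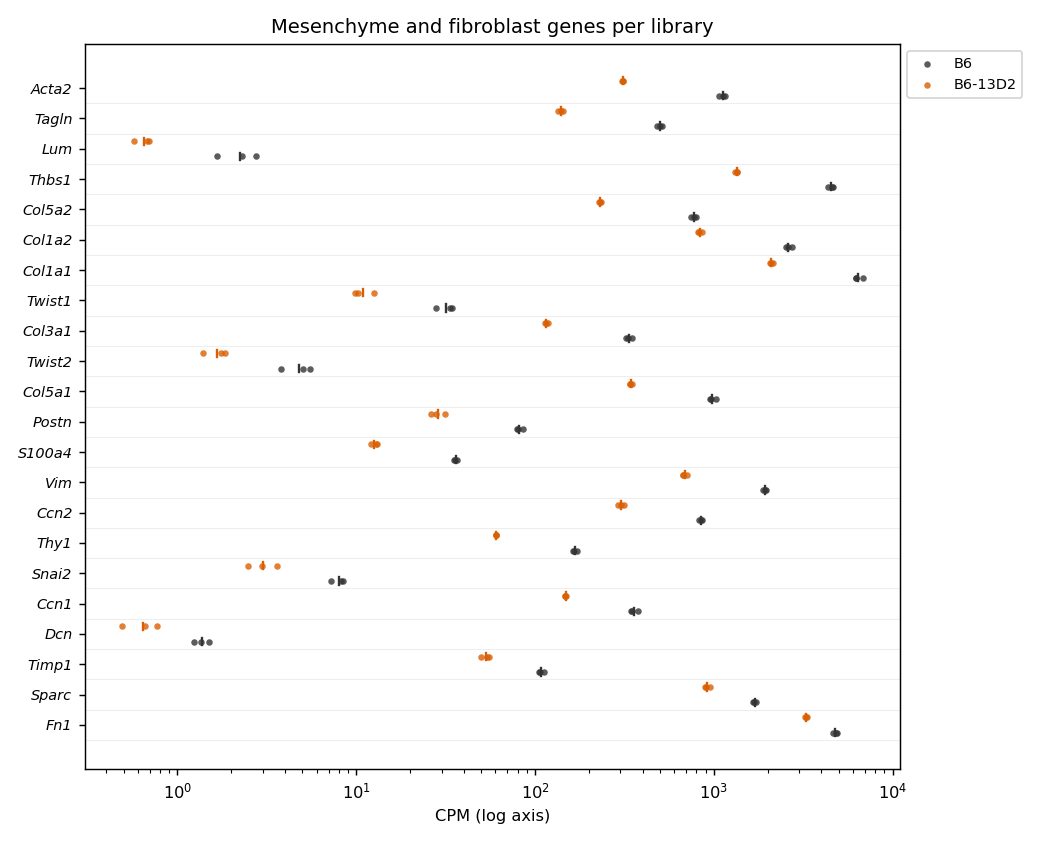
CPM (log axis) of the 22 mesenchyme and fibroblast genes in each B6 and B6-13D2 library; points are libraries and short bars are group means (n = 3). For each gene the 3 congenic libraries lie below the 3 B6 libraries, and on the log axis the gap is widest for Acta2 and narrowest for Fn1.

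Outside this list, 14 genes from the lowest and highest protein-coding genes with whole counts are described, and they span several functions. Obox6, an oocyte-type homeobox gene (chromosome 7, 15833241 to 15839678), was lowest, at 18.6, 19.9 and 20.7 CPM in B6 and 0.831, 0.201 and 0.377 in B6-13D2. Its log2 fold change was -5.38 (SE 0.18), edgeR adjusted p 3.69e-14. Parental D2 was also low, at 1.12 ± 0.304 CPM (SD, n = 3), while D2-13B6 had 40.3 ± 0.773 CPM. Has2, which makes hyaluronan (chromosome 15, 56665627 to 56694539), had 38, 38.1 and 38.8 CPM in B6 and 6.09, 6.48 and 5.66 CPM in B6-13D2 and fell by 6.29-fold. Tnfrsf11b, the decoy receptor osteoprotegerin (chromosome 15, 54250619 to 54278484), had 23.1, 24.6 and 26.8 CPM in B6 and 4.95, 4.06 and 5.21 CPM in B6-13D2, a change of -2.39 (SE 0.096). One makes a matrix component and the other is secreted.

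The remaining lowest genes encode membrane receptors and channels. Cxcr6, a chemokine receptor, had 10.5, 9.7 and 9.05 CPM in B6 and 1.9, 1.21 and 1.09 in B6-13D2. Adra2a, an adrenergic receptor, had 7.6, 9.32 and 7.5 CPM in B6 and 1.7, 1.17 and 1.66 CPM in B6-13D2. Htr5a, a serotonin receptor, had 9.8, 10.2 and 10.2 CPM in B6 and 2.35, 1.88 and 1.32 CPM in B6-13D2 and was near absent in D2, at 0.203 ± 0.0591 CPM. Piezo2, a mechanically gated channel, had 7.6, 6.8 and 6.43 CPM in B6 and 1.32, 1.54 and 1.32 CPM in B6-13D2. Their log2 fold changes ran from -2.79 (SE 0.16) for Cxcr6 to -2.31 (SE 0.12) for Piezo2. The naming rule admitted only genes whose groups did not overlap.

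**Figure D3:**
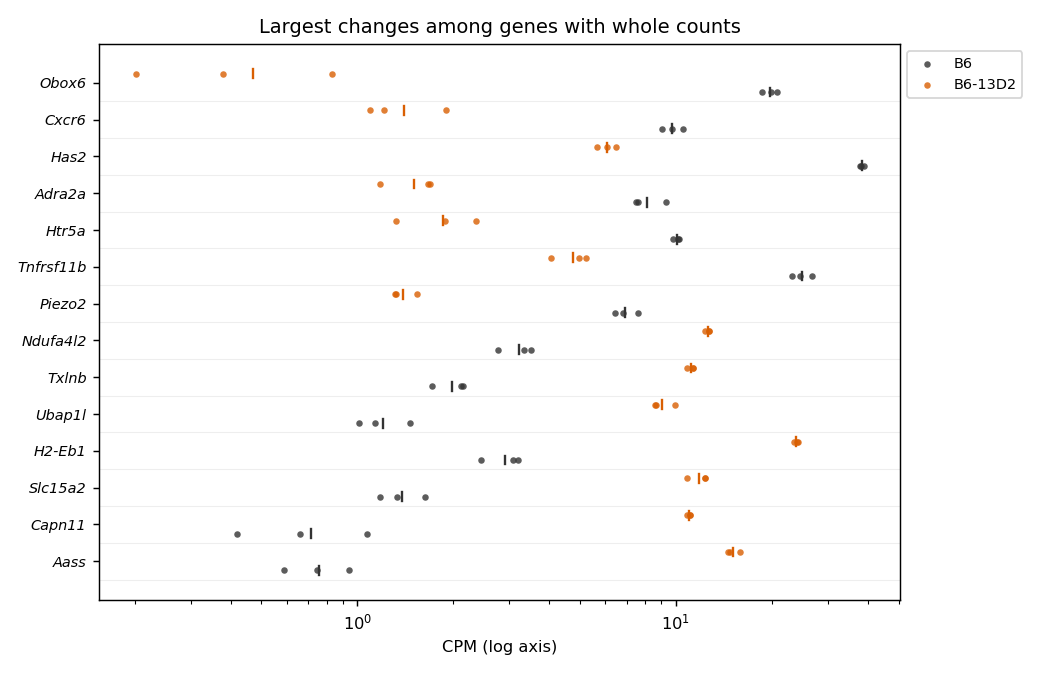
CPM (log axis) of 7 of the lowest and 7 of the highest protein-coding genes with whole counts in each B6 and B6-13D2 library; points are libraries and short bars are group means (n = 3). The naming rule admitted only genes whose groups do not overlap. The separation is widest for Obox6 at the top and Aass at the bottom.

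Among the highest genes, Aass, the enzyme that starts lysine breakdown (chromosome 6, 23072173 to 23132986), had 0.747, 0.588 and 0.943 CPM in B6 and 14.6, 15.9 and 14.8 in B6-13D2. It rose by 19.8-fold, which is 4.31 (SE 0.14) on the log2 scale, with an edgeR adjusted p of 3.24e-14. D2 had 26 ± 2.67 CPM and D2-13B6 2.91 ± 0.231 CPM. Its promoter is shown because it belongs to the gene with the largest rise. The sequence is the 250 bases before the RefSeq start, 5′ to 3′, GRCm38.p6, chr6:23132987-23133236, minus strand, with each CpG dinucleotide in capitals.
Aass: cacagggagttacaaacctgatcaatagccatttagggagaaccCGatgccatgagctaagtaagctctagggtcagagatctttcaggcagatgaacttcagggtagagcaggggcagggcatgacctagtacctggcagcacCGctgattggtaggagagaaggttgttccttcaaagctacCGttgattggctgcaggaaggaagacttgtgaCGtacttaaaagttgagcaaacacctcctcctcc
It holds 4 CpG, against a median of 6 over 27025 promoters of that length, and is thus not dense in the dinucleotide that DNA methylation acts on.

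Capn11, a testis-type calpain protease (chromosome 17, 45630204 to 45659325), had 0.659, 0.42 and 1.07 CPM in B6 and 11.1, 11.1 and 10.8 CPM in B6-13D2 and rose by 3.93 (SE 0.25) on the log2 scale. Slc15a2, a peptide transporter (chromosome 16, 36750177 to 36784962), had 1.63, 1.18 and 1.33 CPM in B6 and 10.8, 12.3 and 12.4 CPM in B6-13D2, a change of 3.10 (SE 0.17). Both were low in both D2 and D2-13B6: the means there were at most 1.27 CPM. Ubap1l (chromosome 9, 65361041 to 65380377) had 1.01, 1.13 and 1.46 CPM in B6 and 8.59, 9.93 and 8.68 CPM in B6-13D2, with a mean of 0.647 ± 0.262 in D2. Txlnb, a taxilin family gene of muscle (chromosome 10, 17796226 to 17845665), behaved differently, with 2.11, 2.14 and 1.71 CPM in B6 and 11.3, 10.8 and 11.3 in B6-13D2, beside 12.8 ± 0.595 in D2 and 13.3 ± 0.419 in D2-13B6. B6 was thus the only group at a low level of Txlnb.

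Pluripotency genes moved little and mostly upward. Of 12 core pluripotency genes, 11 were called, 8 higher and 3 lower, with a median of 0.19. Utf1, a chromatin-bound stem cell factor, rose most, from 94.6 ± 5.67 to 124 ± 4.78 CPM (SD, n = 3), log2 fold change 0.39 (SE 0.042). Dppa2 fell most, from 71.3 ± 1.61 to 47 ± 0.823 CPM, log2 fold change -0.60 (SE 0.052); it activates early embryonic genes. Reads of 7 of the 12, Dppa2, Pou5f1 and Nanog among them, were divided with other loci. Sall4 fell by 1.32-fold. Of 15 naive pluripotency genes, 13 were called, 8 higher and 5 lower. Dppa3, which protects the early embryo's DNA methylation pattern, had 18.8, 18.5 and 17.7 CPM in B6 and 7.58, 9.87 and 10.3 in B6-13D2, log2 fold change -0.99 (SE 0.11). Tcl1, a coactivator of AKT, rose by 0.70 (SE 0.045), and Nr0b1 fell by 1.45-fold. No gene of either list changed by as much as a log2 fold change of 1.

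Genes of formative and primed cells, the next developmental stage, fell more often than they rose. Of 15, 10 fell and 3 rose, with a median of -0.59. Cdh2, N-cadherin, had 81.3, 82.6 and 75.8 CPM in B6 and 24.5, 23.6 and 22.5 in B6-13D2, log2 fold change -1.76 (SE 0.047). Fst, the activin antagonist follistatin, fell, at -1.71 (SE 0.069) and Sfrp2, a secreted Wnt inhibitor, at -1.13 (SE 0.15); Sfrp2 reads were divided. Those that rose were Etv4, an ETS factor, at 0.78 (SE 0.054), and the formative factors Pou3f1 at 0.63 (SE 0.12) and Otx2 at 0.52 (SE 0.16); they were chosen after their values were seen. Cdh2 and Fst are also made by mesenchymal cells, whose summed markers were 2.5-fold lower in the same libraries.

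Markers of other early lineages were mixed. Of 15 tested primitive endoderm genes, 8 fell and 2 rose, of which 1 was called without B6 replicate 3 or without B6-13D2 replicate 2. The called share of the list was 66.7%, against 58.3% of all genes. The basement membrane collagens Col4a1, at 352, 323 and 338 against 117, 118 and 114 CPM, and Col4a2, at 319.6, 297 and 306 against 99.9, 106 and 101 CPM, fell, at -1.54 (SE 0.051) and -1.59 (SE 0.054). Cubn, with divided reads, fell, at -1.87 (SE 0.25), while the lineage factors Sox17, Sox7 and Gata4 were not called, at log2 fold changes of 0.47, 0.35 and -0.35. Gata6, which sets up this lineage, fell, at -1.08 (SE 0.19); these factors were chosen after their values were seen. So were the genes that rose, the laminin Lama1 at 0.61 (SE 0.041) and the factor Hnf4a at 0.78 (SE 0.27), and Lamc1, which was not called at 844 ± 16.8 and 886 ± 16.9 CPM. Of 11 trophoblast genes, 4 rose and 5 fell, and RLE size factors gave 5 of each, and a mean CPM of at least 1 gave 5 higher and 4 lower. Ascl2, a factor of the placental lineage, rose from 3.35 ± 0.242 to 8.83 ± 0.288 CPM, while Gata3 fell, at -0.94 (SE 0.15) and Krt18 at -0.76 (SE 0.11). Of 10 neuroectoderm genes, 3 rose and 5 fell, or 3 and 3 in a fit of only the 6 compared libraries. Olig2, an oligodendrocyte lineage factor, had 23.4, 23 and 27.5 CPM in B6 and 36.6, 42.7 and 38.2 CPM in B6-13D2 (log2 fold change 0.67 (SE 0.075)), and Sox1, an early neural factor, rose by 1.22 (SE 0.13). Map2, a neuronal microtubule protein, fell, at -0.73 (SE 0.077).

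Genes that respond to MAPK signalling fell in cultures that all contained the MEK inhibitor. Of 20 feedback and immediate early genes, 17 fell and none rose, with a median of -0.84. Fosl1, an AP-1 subunit, had 15.2, 16.8 and 13.2 CPM in B6 and 4.15, 3.72 and 3.36 in B6-13D2, a level 4.01-fold lower. Myc, the growth regulator, had 40.6, 44.4 and 42.3 CPM in B6 and 11.5, 12.2 and 13.5 CPM in B6-13D2, log2 fold change -1.77 (SE 0.058). Spry4, a feedback inhibitor of receptor tyrosine kinases, fell, at -1.67 (SE 0.11). Egr3, Spry1 and Egr2 were not called, at -1.90, 0.12 and 0.13. No library of the groups overlapped for Fosl1, Myc or Spry4. The mesenchymal marker sum moved in the same direction across these libraries, and its part in the MAPK result was not tested.

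Among 16 Wnt targets, 9 fell and 3 rose. Dkk1, a secreted Wnt antagonist, fell, at -1.55 (SE 0.35), Nkd2 at -1.06 (SE 0.12) and Sp8 at -0.97 (SE 0.25), all from low levels of 1.66 ± 0.392, 6.04 ± 0.753 and 2.05 ± 0.341 CPM in B6. In the LIF, STAT3 and BMP list of 15, 8 fell and 6 rose, a called share of 93.3% against 58.3% of all genes. The BMP arm held the largest decreases. Bmp4, the ligand, had 22.8, 21.1 and 19.3 CPM in B6 and 6.92, 5.7 and 5.51 in B6-13D2, log2 fold change -1.80 (SE 0.083). Its targets Id1 and Id3, inhibitors of basic helix-loop-helix factors, had 22.3, 22.8 and 22.7 against 7.03, 7.08 and 7.21 and 110.1, 103 and 123 against 31.9, 36 and 31.2 CPM. Id2, of the same family and list, was not called, at 26.9 ± 1.86 CPM in B6 and 29.1 ± 1.63 CPM in B6-13D2. It was chosen after its values were seen. Bcl3 and Socs3, STAT3 targets chosen after their values were seen, rose by 1.04 (SE 0.062) and 0.72 (SE 0.047). Bmp4, Id1 and Id3 were each lower in every congenic library than in any B6 library.

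Of 19 p53 targets and cell cycle inhibitors, 15 fell and 3 rose, with a median of -0.51. Plk2, a kinase induced by p53 (chromosome 13, 110395046 to 110400844), had 184, 182 and 176 CPM in B6 and 59.1, 57.9 and 55.7 in B6-13D2, log2 fold change -1.65 (SE 0.039). Cdkn2b, an inhibitor of CDK4 and CDK6, fell from 30.7 ± 0.585 to 11.4 ± 0.699 CPM, and Cdkn1c from 4.79 ± 0.521 to 2.49 ± 0.0359. Trp53 itself, chosen after its values were seen, changed by -0.13 (SE 0.036). Fibroblasts express several of these genes, and the part of the lower mesenchymal markers was not tested.

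Genes of glucose use rose. Of 22 glycolysis genes, 20 rose, against 25.4% of all tested genes, and 1 fell, Pfkm, a phosphofructokinase subunit, at -0.19 (SE 0.048). The median was 0.39. Aldoc, an aldolase, had 9.58, 9.07 and 10.5 CPM in B6 and 32.7, 32.9 and 30.3 in B6-13D2, log2 fold change 1.72 (SE 0.071). Slc16a3, the lactate exporter, had 73, 63.9 and 74.3 CPM in B6 and 144, 146 and 141 CPM in B6-13D2, log2 fold change 1.03 (SE 0.063). Slc2a1, the glucose transporter GLUT1, had 243, 257 and 254 CPM in B6 and 485, 475 and 467 CPM in B6-13D2, log2 fold change 0.92 (SE 0.033). The summed level was 16336 to 17550.4 CPM in B6 and 20123 to 21032 in B6-13D2, so the groups did not overlap. The promoters of the transporters are shown because both rose and both contain the core of the element that hypoxia-inducible factors bind. The letters ACGTG were searched on both strands and are in capitals; each sequence is the 250 bases before the RefSeq start, GRCm38.p6, Slc16a3 at chr11:120948817-120949066, plus strand, and Slc2a1 at chr4:119108495-119108744, plus strand.
Slc16a3: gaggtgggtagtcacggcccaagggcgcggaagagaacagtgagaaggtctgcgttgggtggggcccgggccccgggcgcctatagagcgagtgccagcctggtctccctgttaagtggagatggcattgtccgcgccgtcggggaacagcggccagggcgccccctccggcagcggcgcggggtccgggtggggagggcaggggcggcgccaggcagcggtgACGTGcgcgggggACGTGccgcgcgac
Slc2a1: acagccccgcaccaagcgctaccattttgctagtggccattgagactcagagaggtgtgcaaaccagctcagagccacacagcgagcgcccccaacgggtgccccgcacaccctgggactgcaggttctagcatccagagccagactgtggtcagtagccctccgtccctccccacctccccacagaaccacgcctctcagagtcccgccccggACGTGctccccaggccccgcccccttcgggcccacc
The matches begin 27 and 14 bases before the start in Slc16a3 and 36 bases before it in Slc2a1. Of all 27025 promoters, 16.6% hold these letters, as do 8 of 21 glycolysis promoters in the table. The 8 include Pfkm, which fell, and not Aldoc, which rose most. A match is a description of the sequence and does not show binding.

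Part of the nuclear subunits of oxidative phosphorylation rose slightly, while most mitochondrial transcripts fell. Of 80 tested nuclear subunits, 38 rose, 1 fell and 41 were not called, with a median of 0.15. This called share, 48.8%, is below the 58.3% of all genes, but RLE size factors gave 57 higher and DESeq2 54, with none lower. Without B6-13D2 replicate 2, 26 were higher and the median was 0.0897. The largest rises were in members that are not constitutive subunits: Ndufa4l2, a hypoxia-induced paralog (chromosome 10, 127514967 to 127517154), went from 3.21 ± 0.39 to 12.6 ± 0.228 CPM, log2 fold change 1.97 (SE 0.12). Cox7a1, a muscle isoform, rose by 1.22 (SE 0.19) and Cox6b2, a testis isoform, by 0.63 (SE 0.09). Of 13 mitochondrially encoded genes, 11 fell and none rose, with a median of -0.40. The respiratory chain gene mt-Cytb had 2434, 2711 and 2573 CPM in B6 and 1525, 1615 and 1610.2 in B6-13D2, log2 fold change -0.70 (SE 0.047). mt-Atp8 fell, at -0.55 (SE 0.056). mt-Nd4l fell, at -0.57 (SE 0.15), or -0.348 without B6 replicate 2, and its reads were divided, as were those of 7 of the 13 genes.

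Cytosolic ribosomal protein genes rose in 55 of 82, and none fell; the median was 0.16. RLE size factors raised this to 75. Their reads are uncertain, as 66 of the 82 have counts divided with their many pseudogenes. Rpl39l and Rpl3l, tissue-restricted paralogs, rose most. Rpl39l had 9.27, 8.69 and 9.6 CPM in B6 and 27, 29.8 and 28.5 in B6-13D2, log2 fold change 1.63 (SE 0.074). Rpl3l rose by 1.05 (SE 0.29). Rpl36, a general ribosomal protein with divided reads, came next at 0.74 (SE 0.13). In the lysine breakdown list of 13, 8 genes rose and 4 fell. Beside Aass, Pipox, a peroxisomal oxidase, rose by 0.57 (SE 0.063) and Ech1, an enoyl-CoA hydratase family member, by 0.49 (SE 0.055). No other gene of the list rose by more than Pipox. Aadat, an aminotransferase of the same pathway, went the other way, at -2.28 (SE 0.55); it was chosen after its values were seen.

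The antigen presentation genes were mixed. Of 26 tested genes, 7 rose and 12 fell, and 14 of the 26 have divided reads. The class II chains H2-Eb1, H2-Ab1 and H2-Aa rose, but the class II accessory gene H2-DMa, chosen after its values were seen, fell, at -1.02 (SE 0.19). H2-Eb1, a class II beta chain (chromosome 17, 34305867 to 34316674), had 3.07, 3.19 and 2.44 CPM in B6 and 23.5, 24 and 24.1 in B6-13D2, log2 fold change 3.04 (SE 0.087), edgeR adjusted p 4.61e-15. H2-Ab1, its class II neighbour, had 0.659, 0.42 and 0.857 CPM in B6 and 2.6, 2.35 and 2.42 CPM in B6-13D2, log2 fold change 1.92 (SE 0.25). H2-Aa, the class II alpha chain, was picked with its values in view, at 0.0879, 0.042 and 0.129 CPM in B6 and 0.45, 0.268 and 0.226 CPM in B6-13D2, log2 fold change 1.83 (SE 0.55). B2m, the light chain of class I, had 339, 355 and 345 CPM in B6 and 114, 128 and 123 CPM in B6-13D2, log2 fold change -1.51 (SE 0.039). H2-Aa thus rests on few reads in B6. H2-Eb1 stood at 30.7 ± 1.18 CPM in D2 and 8.5 ± 0.546 in D2-13B6. The promoters of H2-Eb1 and H2-Aa are shown because both belong to class II genes that rose and both hold a Y box. This is the CCAAT-type element of class II promoters. The letters CTGATTGG were searched on both strands and are in capitals, in the 250 bases before the RefSeq start, GRCm38.p6, H2-Eb1 at chr17:34305617-34305866, plus strand, and H2-Aa at chr17:34287824-34288073, minus strand.
H2-Eb1: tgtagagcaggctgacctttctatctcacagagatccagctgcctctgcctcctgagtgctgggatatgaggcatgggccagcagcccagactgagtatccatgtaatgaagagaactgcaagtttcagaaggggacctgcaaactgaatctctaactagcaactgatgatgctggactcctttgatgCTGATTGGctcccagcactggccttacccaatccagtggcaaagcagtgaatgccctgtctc
H2-Aa: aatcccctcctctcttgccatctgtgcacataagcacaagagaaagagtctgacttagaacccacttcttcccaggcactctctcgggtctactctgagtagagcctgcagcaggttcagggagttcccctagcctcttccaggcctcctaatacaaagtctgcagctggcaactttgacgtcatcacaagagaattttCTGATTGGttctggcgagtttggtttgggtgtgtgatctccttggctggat
The match begins 62 bases before the start in H2-Eb1 and 51 bases before it in H2-Aa. Of all 27025 promoters, 4.07% hold these letters. Of 20 promoters of the list in the table, 9 hold them, among them genes that fell, such as Tap1 and H2-D1. H2-Ab1, which rose, is not among the 9. The same letters also stand in the Aass promoter shown above, where they are not marked.

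Interferon and nucleic acid sensing genes fell in 15 of 26 and rose in 7, or 4 without B6 replicate 2, with a median of -0.47. The log2 fold changes ran from -2.27 to 0.736. Summed over the list, the level was 799 to 841 CPM in B6 and 802 to 853 CPM in B6-13D2, so the sums overlapped. The genes named next are all ones that fell. Ifih1, the cytosolic sensor of double-stranded RNA, had 5.93, 6.3 and 6.52 CPM in B6 and 1.21, 1.78 and 1.96 in B6-13D2, log2 fold change -1.92 (SE 0.14). Tlr3, the endosomal sensor, had 2.02, 2.31 and 2.36 CPM in B6 and 0.242, 0.57 and 0.566 CPM in B6-13D2, log2 fold change -2.27 (SE 0.30). Ifit1, an interferon-induced RNA-binding protein with divided reads, fell, at -1.81 (SE 0.12). These genes were low in both groups, and every congenic library was below every B6 library for each.

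Genes of heterochromatin and genome folding, the subject of the series title, changed in both directions, and no gene of the DNA methylation, H3K9, HUSH, Polycomb or cohesin lists had a change of 1 or more on the log2 scale. Of 15 tested DNA methylation genes, 4 rose and 7 fell, a called share of 73.3% against 58.3% of all genes. Dnmt3l, a cofactor of the de novo methyltransferases, had 82.2, 75.1 and 84.5 CPM in B6 and 131, 132 and 127 in B6-13D2, log2 fold change 0.69 (SE 0.043). Uhrf1, which brings DNMT1 to replicated DNA, had 551, 531 and 579 CPM in B6 and 879, 902 and 871 CPM in B6-13D2, log2 fold change 0.68 (SE 0.035), and Dnmt3b rose by 0.65 (SE 0.04); reads of both were divided. The de novo methyltransferase Dnmt3a, the imprint-protecting Zfp57 and the demethylating enzyme Tet2 went the other way, at -0.57 (SE 0.044), -0.55 (SE 0.04) and -0.52 (SE 0.042); these were chosen after their values were seen. Of 18 H3K9 methylation and HP1 genes, 10 rose and 3 fell, a called share of 72.2%. Kdm4b, an H3K9 demethylase, rose by 0.59 (SE 0.043), Suv39h2, a heterochromatin methyltransferase, by 0.44 (SE 0.056), and the demethylase Kdm3a fell, at -0.57 (SE 0.04). The corepressor Trim28, at 1779.7 ± 41.2 and 1798 ± 33.5 CPM, and Setdb1, at 142 ± 3.39 and 140.2 ± 2.04 CPM, were not called; they were chosen after their values were seen.

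The HUSH, MORC and chaperone list of 17 had 5 higher and 6 lower genes, and RLE size factors turned this to 6 higher and 2 lower. The called share was 64.7%, near the 58.3% of all genes. Asf1b and Chaf1b, histone chaperones of DNA replication, rose by 0.59 (SE 0.072) and 0.57 (SE 0.046), and Smarcad1, a remodeler of replicated heterochromatin, fell, at -0.44 (SE 0.042). Of 26 Polycomb genes, 12 rose and 7 fell, a called share of 73.1%. Ezh1 and Phf19 rose by 0.64 (SE 0.051) and 0.66 (SE 0.19), and Yaf2, a subunit of variant PRC1, fell, at -0.82 (SE 0.062). Of 16 cohesin and CTCF genes, 6 were called (37.5%, below the 58.3% of all genes), 2 higher and 4 lower, which RLE size factors reversed to 4 and 2; without B6 replicate 1, 1 was higher. Stag3, a meiotic cohesin subunit, rose by 0.51 (SE 0.083), and Nipbl, the cohesin loader, fell, at -0.35 (SE 0.05). Esco1, a cohesin acetyltransferase, changed by -0.20 (SE 0.075) and was not called with RLE size factors.

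Germline genes, many of which are kept silent by promoter methylation in somatic cells, fell in 9 of 20 and rose in 4, or 2 without B6-13D2 replicate 1. Their called share, 65.0%, was near the 58.3% of all genes. Taf7l, a germ cell TFIID subunit, had 1.71, 1.47 and 2.02 CPM in B6 and 0.346, 0.503 and 0.717 in B6-13D2, log2 fold change -1.73 (SE 0.28). Sycp1, of the synaptonemal complex, had 4.26, 5.33 and 4.24 CPM in B6 and 1.49, 1.58 and 1.66 CPM in B6-13D2, log2 fold change -1.55 (SE 0.13). Fkbp6, of the piRNA pathway, went the other way, at 2.77, 2.52 and 3.26 CPM in B6 and 7.86, 7.05 and 7.51 CPM in B6-13D2, log2 fold change 1.39 (SE 0.12). Of 14 tested two-cell-like genes, 3 fell and 11 were not called, a called share of 21.4% against 58.3%. Zscan4f fell, at -0.29 (SE 0.076) and Eif1a at -0.17 (SE 0.036), or -0.102 with RLE size factors; the third was Usp17la, at -0.75 (SE 0.27). Reads of 12 of these 14 genes were divided, so their values are uncertain.

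Of 39 imprinted genes, 13 rose and 16 fell, a called share of 74.4% against 58.3% of all genes. Airn, the antisense RNA of the Igf2r domain, had 2.2, 1.72 and 2.1 CPM in B6 and 0.519, 0.738 and 0.302 in B6-13D2, log2 fold change -1.92 (SE 0.28). Dio3, a thyroid hormone deiodinase, had 13.1, 14.5 and 15.9 CPM in B6 and 4.95, 3.72 and 3.74 CPM in B6-13D2, log2 fold change -1.81 (SE 0.13). Nnat, chosen after its values were seen, rose by 1.26 (SE 0.13). H13, a signal peptide peptidase whose reads were divided, fell, at -1.52 (SE 0.051). Airn overlaps another gene, and without a statement on strand in the sources used here their reads cannot be told apart.

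On chromosome 13 itself, 351 of 638 tested genes were called (55.0%), 124 higher and 227 lower, with a median of -0.0987 on the log2 scale. With RLE size factors, which also raised the median of all genes, to 0.0275, the chromosome 13 median log2 fold change was -0.0354. Other autosomes had medians between -0.149 and 0.0557, so chromosome 13 lay within their range. The share called and changed by 1 or more on the log2 scale was 16.8% on chromosome 13 and 10.5% to 20.2% on the other autosomes. In windows of 10 Mb, the called share ran from 36.1% between 20 and 30 Mb to 34 of 50 genes between 30 and 40 Mb, leaving out the last window with 3 tested genes. The window from 60 to 70 Mb, which holds 28 of the 40 tested zinc finger genes, had 23 higher and 22 lower of 84 tested. It had 6 genes higher and 8 lower by a log2 fold change of at least 1, and no other window had more than 2 higher, while others had up to 14 lower. This window was picked with its values in view, and the start and end of the D2 segment on GRCm38 are not given in the sources used here.

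The naming rule gave 6 lowest genes of chromosome 13, with differing functions. Cxcl14, a chemokine (56288643 to 56296551), had 143, 145 and 141 CPM in B6 and 31.4, 32.2 and 27.1 in B6-13D2, log2 fold change -2.24 (SE 0.06), edgeR adjusted p 1.88e-15. Inhba, an activin subunit (16011851 to 16031621), had 84.6, 79.3 and 74.2 CPM in B6 and 17.9, 20.5 and 18.5 CPM in B6-13D2, log2 fold change -2.06 (SE 0.059). Nedd9, an adhesion scaffold (41309581 to 41487362), had 21.8, 24.4 and 21.7 CPM in B6 and 5.33, 5.27 and 5.47 CPM in B6-13D2. Adamts6, a matrix protease (104287835 to 104496695), Parp8, an ADP-ribosyltransferase family member (116854820 to 117025537), and Fgd3, a guanine nucleotide exchange factor (49261554 to 49320311), fell, at -2.16 (SE 0.13), -2.10 (SE 0.088) and -2.01 (SE 0.10). They are spread along the chromosome rather than in a block. In D2 all 6 were above B6, with Cxcl14 at 215 ± 15.5 and Inhba at 118 ± 2.64 CPM, so the congenic level was not the level of the D2 parent.

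The highest genes of chromosome 13 included 3 that were higher wherever the D2 segment was present, although the B6-13D2 and D2 libraries did not overlap in any of the 3. The zinc finger gene 2410141K09Rik (66418114 to 66441118) had 29.9, 29.7 and 30.8 CPM in B6, 110.4, 116 and 112 in B6-13D2, 81.2, 85 and 98.5 in D2 and 34.9, 33.3 and 30.3 in D2-13B6. Libraries with the D2 segment were thus all above libraries with the B6 segment; its log2 fold change was 1.90 (SE 0.064). Gm10324 (66119547 to 66122836) had 14.1, 15.3 and 13.4 CPM in B6, 33.4, 33 and 31.9 in B6-13D2, 38.2, 43 and 47.6 in D2 and 22.1, 21.9 and 24.3 in D2-13B6, so that libraries with the D2 segment were again above those with the B6 segment, and reads of both genes were divided. Slc35d2, a nucleotide sugar transporter with whole counts (64096308 to 64129368), had 2.81, 2.43 and 2.7 CPM in B6, 7.17, 6.71 and 6.79 in B6-13D2, 5.0, 5.34 and 4.73 in D2 and 2.88, 3.27 and 3.2 in D2-13B6, which made 1.38 (SE 0.11) between B6-13D2 and B6 on the log2 scale. For Slc35d2, too, every library with the D2 segment was above every library with the B6 segment. Elovl7, a fatty acid elongase (108214404 to 108285683), had 9.0, 10.6 and 10.4 CPM in B6 and 24.1, 24.4 and 27.1 in B6-13D2 but only 2.57 ± 0.537 in D2. Elovl2, of the same family (41182381 to 41220405), and Ocln, a tight junction protein (100496507 to 100552718), rose by 1.16 (SE 0.14) and 1.12 (SE 0.14), from 4.35 ± 0.475 and 4.07 ± 0.629 CPM. On the D2 background the order was the reverse in both, since Elovl2 averaged 5.37 ± 1.25 CPM in the D2 libraries against 7.83 ± 0.882 in those of D2-13B6, and Ocln 3.02 ± 0.781 against 8.74 ± 0.443.

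Of 40 tested zinc finger genes of chromosome 13, 14 rose, 6 fell and 20 were not called, a called share of 50.0% against 58.3% of all genes. Their median was 0.15, and 23 of the 40 have divided reads. Zfp459 (67405709 to 67421418), which has whole counts, had 33.4, 34.9 and 36.4 CPM in B6, 13.1, 14.4 and 13 in B6-13D2, 13.5, 13.8 and 12.2 in D2 and 29, 31.1 and 28.6 in D2-13B6. Its level was lower wherever the D2 segment was present, with a log2 fold change of -1.37 (SE 0.063) against B6. Zfp874a (67424549 to 67451624), with divided reads, had 16.9, 21.2 and 18 CPM in B6, 4.92, 5.77 and 5.7 in B6-13D2, 9.08, 8.76 and 7.97 in D2 and 19.2, 19.3 and 18.6 in D2-13B6, which made -1.78 (SE 0.093) between B6-13D2 and B6 on the log2 scale. Its paralog Zfp874b was not called, at 6.55 ± 0.408 and 7.27 ± 0.359 CPM; it was picked with its values in view. The other 17 called members ran from -0.90 for Zfp273 to 0.94 for Zfp934, named after their values were seen.

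**Figure D4:**
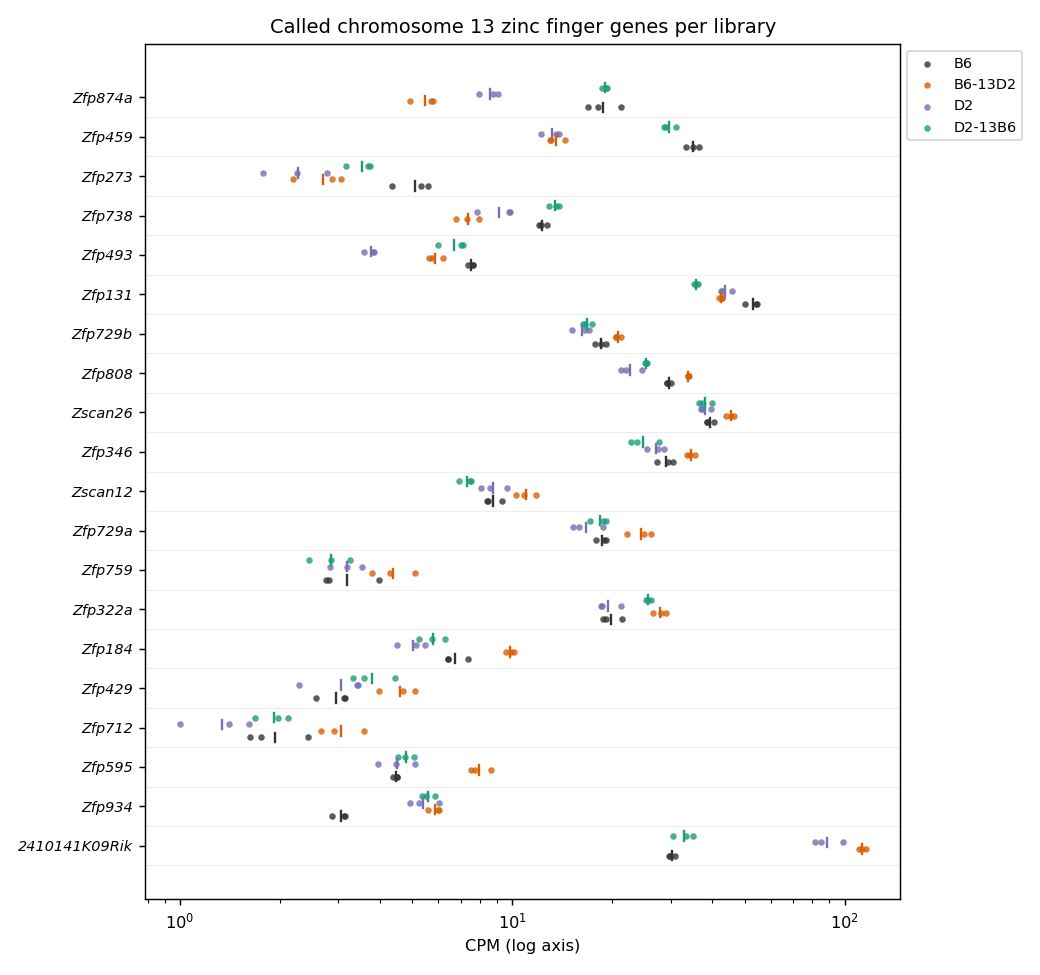
CPM (log axis) of the 20 called zinc finger genes of chromosome 13 in each library of the 4 groups; points are libraries and short bars are group means (n = 3). B6-13D2 and D2 are both above the groups with the B6 segment for 2410141K09Rik and both below them for Zfp459 and Zfp874a, while Zfp595 is raised only in B6-13D2.

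Of 14 tested genes on the Y chromosome, 7 fell and 2 rose. In the list of Y genes, 7 were tested, of which 5 fell and none rose, but only 3 were called with DESeq2. Kdm5d, a histone demethylase with divided reads, had 11.6, 10.2 and 9.56 CPM in B6 and 2.77, 2.92 and 2.45 in B6-13D2, log2 fold change -1.94 (SE 0.11). Eif2s3y, a translation factor subunit, had 48.9, 48 and 51.7 CPM in B6 and 33.9, 36.5 and 36.6 CPM in B6-13D2, log2 fold change -0.47 (SE 0.047), and Uba1y fell, at -0.44 (SE 0.082). Ddx3y, at 64.2 ± 3.13 and 65.7 ± 1.4 CPM, was not called and was picked with its values in view.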

How the data were processed

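RNA-seq libraries were made from an mRNA kit, per the labels' protocols. The authors deposited expected counts per gene, estimates of read numbers that share ambiguous reads between loci, in a table named for EMASE. Bowtie 1.0.0, edgeR 3.34.1 and mm10 stand in the submitters' processing notes, without their roles; the annotation and the use of strand are not given in the sources used here. Gene names and positions came from GENCODE M21 (GRCm38), which held 42462 of 43346 IDs. Of the values, 88.1% were whole numbers within 1e-06, and genes whole in all libraries held 61.8% of reads; other genes are called divided, and their values are uncertain.

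Counts were rounded and fitted in R 4.3.3 with edgeR 4.0.16 (TMM scaling, filterByExpr with a minimum count of 10, quasi-likelihood test, Benjamini-Hochberg adjustment over 17148 genes), with 4 group means over 12 libraries. The fit and the tests were tried on simulated counts. Alternatives were DESeq2 1.42.0, RLE size factors, other filters, only the compared libraries, a replicate block and leaving out each library. Named genes were, first, the 8 highest and 8 lowest called protein-coding genes with whole counts. They were also the 6 highest and 6 lowest of chromosome 13, up to 3 of the largest changes per list, and the cell type check. A few genes that this rule picks are not reported here. Naming required mean log2 CPM of at least 2, or 0 within lists. For the genes with whole counts and those of chromosome 13, it also required that the CPM of the groups did not overlap. Among the genes with whole counts, symbols that are Gm plus digits or end in Rik were left out. The members and lists were chosen with earlier results of these data known.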

Additional observations from a re-analysis of the deposited data

Results flagged for a closer look

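The effect of the D2 segment was compared between backgrounds by the difference of B6-13D2 minus B6 and D2 minus D2-13B6, in the same edgeR fit. Algebraically this equals both congenic lines minus both parental strains, so a gene that differs between congenic and parental lines is picked out whichever segment it carries. It passed an adjusted p of 0.05 in 11059 of 17148 genes. The columns of both congenic lines carry the prefix that those of both parental strains lack. If the prefix records a batch, that batch cannot be told apart from this contrast. Groups of 3 were too small for a check of single libraries.

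Among the lowest and highest genes of the comparison, 13 of the 14 described differed, all but Obox6. The log2 difference was -4.44 for Cxcr6, -3.99 for Has2, -3.78 for Tnfrsf11b, -3.73 for Adra2a and -3.36 for Piezo2. These genes fell on the B6 background with the D2 segment and were higher in D2 than in D2-13B6. It was 1.16 for Aass and 1.19 for H2-Eb1, which were higher with the D2 segment on both backgrounds but by more on B6. It was 1.87 for Htr5a, which was lower with the D2 segment on both, by more on the D2 background. The difference was 2.54 for Txlnb, 3.30 for Slc15a2, 3.44 for Ndufa4l2, 3.57 for Ubap1l and 4.47 for Capn11, which rose on B6 and were lower in D2 than in D2-13B6 in mean CPM. Of the 95 other named genes, 87 differed as well. These genes were named for their difference between B6-13D2 and B6, which is a term of this contrast, so the choice of genes raises both counts and they support nothing further.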

How the results depend on the processing

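Against 10003 called genes, DESeq2 called 9696, RLE size factors 10275, a mean CPM of at least 1 gave 9529, no filter 10267, and a fit of only the 6 compared libraries 9835. Leaving out 1 library gave 9314 to 9636 calls (3971 to 4252 higher, 5209 to 5416 lower), where the group left with 2 libraries shares the spread of the others. Requiring a change of 1 or more on the log2 scale left 2478 genes, 592 higher and 1886 lower. The split of calls moved with scaling, from 43.5% higher with TMM to 52.0% with RLE and 51.9% with DESeq2. With TMM it also moved with the genes tested or libraries fitted, to 49.7% with the CPM minimum, 49.3% with the 6 libraries and 45.9% with no filter; RLE size factors raised the median over all genes from -0.0352 to 0.0275. The majority direction turned in the HUSH, MORC and chaperone list (5 higher and 3 lower with the CPM minimum or the 6 libraries; also with no filter and when B6 replicate 1, 2 or 3 or B6-13D2 replicate 3 was left out), in the cohesin list with RLE and DESeq2, and in the trophoblast list with the CPM minimum (5 higher and 4 lower). The median of the antigen presentation list turned from -0.18 to 0.13 with no filter. Of 7 Y genes, 5 were called, but 3 with DESeq2, the CPM minimum or the 6 libraries, and 3 to 5 when a library was left out; 3 without B6 replicate 1, B6 replicate 2, B6-13D2 replicate 2 or B6-13D2 replicate 3. All 22 mesenchyme genes remained called lower in each alternative. Of the named genes, none reversed in a fit that tested it, but not all were tested with the CPM minimum. Esco1 lost its call at -0.140 with DESeq2 and with RLE, at -0.165 with the CPM minimum, and when B6 replicate 2, B6-13D2 replicate 1 or B6-13D2 replicate 2 was left out. Pou5f1 lost it at 0.103 without B6 replicate 2. The replicate block gave 9911 calls, and no named gene lost its call. Deviations of same-numbered libraries correlated at 0.0158, -0.0701 and -0.124. With 3 libraries per group these values cannot decide whether the numbers pair the samples. With this depth and the small spread between cultures, small changes pass the test, and the depth limits mainly genes with a few reads, such as H2-Aa in B6.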

Other observations

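The lists in this paragraph and the next were drawn up after values of these data were seen, and their counts are descriptions with no test. Cholesterol synthesis genes rose in 17 of 19, against 25.4% of all tested genes, by a log2 fold change of up to 1.22 for Dhcr7, the enzyme of the last step. Hsd17b7 and Sc5d, enzymes of the same pathway, fell by 1.00 and 0.34. All 12 genes of the replication helicase and its loading partners rose by a small amount, from 0.18 for Mcm5 to 0.43 for Cdc45. Of 18 genes that respond to low oxygen, 12 rose and 5 fell. Beside Ndufa4l2, the largest rises were 1.79 for Ddit4, an mTOR inhibitor, and 1.39 for Egln3, a prolyl hydroxylase. The collagen prolyl hydroxylases P4ha1 and P4ha2 fell by 0.55 and 0.50, and Car9 was not called, at -0.14. Of 14 ATF4 and amino acid genes, 10 rose and 4 fell. Chac1, which degrades glutathione, rose by 1.57 and Slc7a11, the cystine transporter, fell by 1.40.

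Of 18 integrin and adhesion genes, 10 fell and 5 rose. The largest decreases were in the cadherin Cdh11 at -2.06 and the integrin Itga2 at -1.92. Those that rose were Cldn7 at 1.49, Ocln at 1.12, Epcam at 1.11, Cldn6 at 0.84 and Cdh1 at 0.18, junction and epithelial adhesion genes, but the epithelial keratins Krt18, Krt8 and Krt19 of the trophoblast list fell, at -0.76, -0.58 and -0.29. Of 14 TGF-beta and activin genes, 12 fell, among them the BMP antagonist Grem1 at -2.09 and the ligand Tgfb3 at -1.93. Lefty1 and Lefty2, Nodal antagonists of stem cells, rose by 1.04 and 1.14. Of 13 YAP and TEAD targets, 11 fell, led by Ankrd1 at -2.13, and 1, Wwc1, rose by 0.67. These decreases stand beside the lower mesenchymal marker sum in the same libraries, whose part was not tested.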
